A study of Rattus norvegicus with 12 samples.

Results

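Cystathionine gamma-lyase (Cth), the enzyme that closes transsulfuration, was 3.38-fold higher in liver cells of Dark Agouti (DA) rats than in those of Lewis (LEW) rats, and that difference is the reason it is described here together with the other enzymes of its pathway. The group held 8 of the 32883 gene rows of the count tables, namely Mat1a, Gnmt, Ahcy, Bhmt, Cbs, Cth, Cdo1 and Csad. The genes were selected on the Cth level in whole cells of the 2 strains and on their place in methionine and cysteine metabolism. The strain values of whole cells are therefore given as a description, with no test. The question was whether the pathway moved with Cth in hepatocytes, by strain, by preparation and by lobular zone.

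The study profiled livers of healthy male rats with droplet sequencing of cells and nuclei and with spatial transcriptomics. Total liver homogenate (TLH), the cell suspension left after collagenase digestion, came from 2 DA and 2 LEW rats and was sequenced with 10x Genomics 3 prime chemistry version 2. A pair of immune-enriched suspensions, 1 DA and 1 LEW, had extra washes and red blood cell removal and used version 3. Their parenchymal cells were removed by differential centrifugation, so the hepatocyte-like cells of this pair are those left after that step. Nuclei from 2 DA and 2 LEW livers also used version 3, and 2 Visium sections came from Wistar liver. No group had a named treatment or allele, although the deposited names of the DA and LEW libraries carry the word sham, which the sources used here do not explain. The series text puts the scRNA-seq rats at 8 to 10 weeks of age, whereas the deposited names of the TLH libraries put the DA rats at 10 weeks and the LEW rats at 13 weeks, and those of the immune-enriched libraries at 9 weeks. Strain and age cannot be told apart in the TLH libraries if the latter hold. Ages of the other rats were not given in the labels, and the text of the study gives an older age for the TLH rats than either source. The series text calls the rats behind the nuclei additional animals, but the deposited names of the TLH and nuclei libraries carry the same animal numbers, so whether the nuclei are a second set of rats cannot be told from the sources used here.

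Unique molecular identifiers (UMIs) count captured transcripts, and levels are given in CPM, the UMIs of a gene per 1000000 UMIs summed over the hepatocyte-like cells or nuclei of a library. The genes carry the Ensembl identifiers Mat1a (ENSRNOG00000011351), Gnmt (ENSRNOG00000016349), Ahcy (ENSRNOG00000017777), Bhmt (ENSRNOG00000011200), Cbs (ENSRNOG00000029528), Cth (ENSRNOG00000010658), Cdo1 (ENSRNOG00000000158), Csad (ENSRNOG00000011573). A cluster was called hepatocyte-like from hepatocyte markers among its leading genes or, for 6 clusters of nuclei, from a 1.5-fold excess of these markers, and 16084 of 23036 TLH cells, 11164 of 12525 nuclei and 1416 of 3840 immune-enriched cells were in such clusters. Leading genes alone gave 8419 of the nuclei. The median kept cell held 1794 to 2546 UMIs in TLH, the median nucleus 1542 to 2059 and the median immune-enriched cell 4090 to 5581. All 34 measured hepatocyte markers were detected in the hepatocyte-like sum of every library, but these markers had also named the clusters. In TLH they summed to 139298 to 156287 CPM in hepatocyte-like cells and to 97138 to 120882 CPM in endothelial-, mesenchymal-, macrophage- and leukocyte-like clusters. The same sums were 105704 to 154917 and 56871 to 80687 CPM in nuclei. In the DA and LEW immune-enriched libraries they were 114721 and 153743 CPM against 1807 and 17725 CPM. The members were also counted in other cells. In TLH the members stood at 61.8% to 110% of their hepatocyte-like level in the endothelial-, mesenchymal-, macrophage- and leukocyte-like clusters, here called the other classes (median 77.8%), and in nuclei at 55.0% to 112% (median 73.4%). In immune-enriched cells the same measure was 0.745% to 17.7% (median 8.21%), at 1 library a strain. That measure leaves out the erythroid-like and the unnamed immune-enriched cells. The 85 DA and 182 LEW erythroid-like cells held the members at up to 11.5% of the hepatocyte-like level. The 219 DA and 511 LEW cells of unnamed clusters held them at 11.9% to 81.0% (median 26.9%) and 44.0% to 242% (median 81.5%), with Gnmt highest in both and among the leading genes of 1 such cluster. Any pair of nuclei libraries shared 8 to 24 deposited barcodes and 1 to 6 kept ones, and barcodes of the TLH and immune-enriched libraries were not analysed here.

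Methionine is activated to S-adenosylmethionine, the methyl donor of the cell, by methionine adenosyltransferase, which hepatocytes make from Mat1a. Methyltransferases such as glycine N-methyltransferase (Gnmt) turn the donor into S-adenosylhomocysteine, and Ahcy splits that product to homocysteine. Homocysteine is either remethylated to methionine, in liver also by betaine-homocysteine methyltransferase (Bhmt), or committed to transsulfuration by cystathionine beta-synthase (Cbs) and Cth, which yields cysteine. Cysteine dioxygenase (Cdo1) and cysteine sulfinic acid decarboxylase (Csad) carry cysteine on to taurine, which the liver uses to conjugate bile acids. The liver lobule runs from the portal tract to the central vein, and many metabolic genes are expressed mainly at one end.

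The start-site regions of Cth, Bhmt and Csad are printed because Cth had the largest strain ratio and Bhmt and Csad had zone differences in opposite directions. They run from 250 bases before to 50 bases after the annotated start, are taken from RefSeq on the GRCr8 assembly, which is not the assembly the reads were aligned to, and are written 5′ to 3′ along the gene's strand. Capitals mark matches, on either strand, to CACGTG (the E box), GGGCGG (the GC box), CCAAT (the CCAAT box), TATAA (the core of a TATA box) or TGATGNAA (a C/EBP-ATF element). Matches may overlap, and Cdo1 had no entry.
Cth, chr2:249661017-249661316, minus strand: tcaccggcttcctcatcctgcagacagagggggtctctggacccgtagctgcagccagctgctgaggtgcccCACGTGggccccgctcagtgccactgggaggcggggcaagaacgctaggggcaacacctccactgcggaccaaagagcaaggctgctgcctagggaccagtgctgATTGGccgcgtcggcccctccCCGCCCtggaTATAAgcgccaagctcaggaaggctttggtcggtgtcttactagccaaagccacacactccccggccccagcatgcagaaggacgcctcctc
Bhmt, chr2:26614380-26614679, minus strand: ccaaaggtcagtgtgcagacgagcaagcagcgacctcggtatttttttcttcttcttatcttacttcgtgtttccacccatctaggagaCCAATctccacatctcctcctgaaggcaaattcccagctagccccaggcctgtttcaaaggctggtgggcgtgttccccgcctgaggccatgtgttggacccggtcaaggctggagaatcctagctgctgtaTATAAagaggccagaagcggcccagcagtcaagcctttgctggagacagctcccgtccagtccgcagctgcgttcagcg
Csad, chr7:135215532-135215831, minus strand: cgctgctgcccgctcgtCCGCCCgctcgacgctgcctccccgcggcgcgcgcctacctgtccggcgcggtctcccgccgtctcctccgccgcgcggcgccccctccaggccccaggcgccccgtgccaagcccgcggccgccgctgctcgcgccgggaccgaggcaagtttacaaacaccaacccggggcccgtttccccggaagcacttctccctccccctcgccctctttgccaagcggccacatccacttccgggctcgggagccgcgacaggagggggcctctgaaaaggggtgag
Of the 7 members with an entry, 1, Cth, held CACGTG, which occurs in 6.42% of the 33469 start-site regions of the same length. GGGCGG was found in 5 of the 7 members and in 33.1% of all regions, CCAAT in 4 and 37.5%, and TATAA in 3 and 26.2%. No member held TGATGNAA, found in 3.98% of all regions. The guanine and cytosine content was 65% for Cth, 55.3% for Bhmt and 75% for Csad, against a median of 51.7% over all regions. A match is a description of the letters and not of a bound site.

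In TLH hepatocyte-like cells Cth stood at 2146 CPM in DA 1 and 2122 CPM in DA 2, and at 669 CPM in LEW 1 and 595 CPM in LEW 2. Both DA rats were far above both LEW rats, and rats of a strain differed little (DA 2134 ± 16.8, LEW 632 ± 52.7 CPM, SD, n = 2). The strains filled the hepatocyte-like clusters of TLH unequally. The largest cluster held 1289 of 4406 and 1234 of 4539 DA cells but 1882 of 4242 and 1687 of 2897 LEW cells, and the next held 1311 and 2021 DA cells against 808 and 495 LEW cells, and the part of this make-up in the TLH strain values was not tested. In hepatocyte-like nuclei the levels were 1016 and 1118 CPM in DA against 511 and 278 CPM in LEW. The groups again did not overlap, with a wider spread between the LEW rats. LEW 1 stood apart among the nuclei libraries. It supplied 4934 of the 11164 hepatocyte-like nuclei, with 481 of 768, 443 of 732 and 290 of 427 nuclei of 3 such clusters but 225 of 1047 of the largest, and Mat1a, Bhmt, Cbs and Csad stood in its other classes at 103% to 112% of their hepatocyte-like level. The fitted difference in nuclei was 1.38 on the log2 scale (SE 0.46), which did not pass the threshold of 0.05 after adjustment over all genes tested (adjusted p = 0.247, edgeR quasi-likelihood test with Benjamini-Hochberg adjustment). It passed with library totals in place of TMM scaling (edgeR adjusted p = 0.0297), in DESeq2 (adjusted p = 0.0470) and in edgeR without LEW 1 (log2 2.04, adjusted p = 0.0454), while without LEW 2 the log2 difference was 0.93 (adjusted p = 0.157, edgeR). Over all settings its adjusted p ran from 0.0297 to 1.00 (edgeR and DESeq2). In immune-enriched hepatocyte-like cells Cth was 1464 CPM in the DA library and 399 CPM in the LEW library, a ratio of 3.67 (95% counting interval 3.56 to 3.78). The ratio of strain means was 3.38 in TLH, 2.70 in nuclei and 3.67 in the immune-enriched pair, which has no replicate and whose interval covers counting error only.

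**Figure D1:**
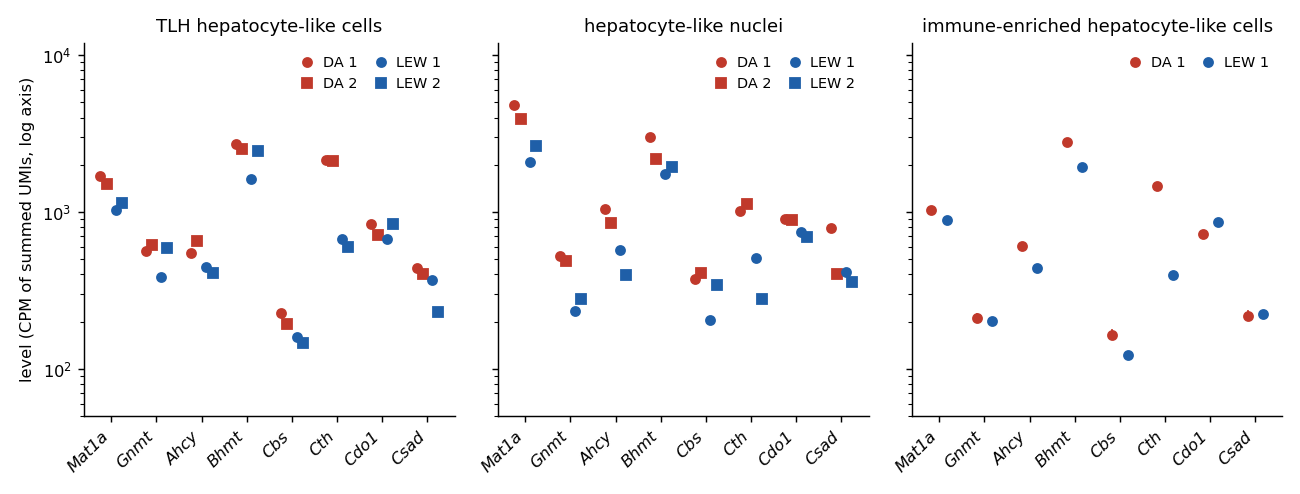
Level of each member in hepatocyte-like cells or nuclei of every library, in CPM of summed UMIs on a log axis, with DA in red and LEW in blue and 95% counting intervals in the immune-enriched panel. The DA points of Cth lie at 1016 CPM or more in all 3 panels and its LEW points at 669 CPM or less, while the strain means of Cdo1 in TLH are within 1.03-fold.

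The genes of the methionine cycle differed less between strains. Mat1a stood at 1700 and 1513 CPM in DA and 1032 and 1149 CPM in LEW in TLH, and at 4789 and 3912 against 2088 and 2630 CPM in nuclei. Both DA rats were above both LEW rats in each preparation. The fitted difference in nuclei was 0.89 on the log2 scale (SE 0.41, adjusted p = 0.494, edgeR). Gnmt, which uses up surplus methyl donor, was 567 and 620 CPM in DA and 387 and 592 CPM in LEW in TLH, where the strains overlapped, and 527 and 489 against 234 and 277 CPM in nuclei, where they did not. Its log2 difference in nuclei was 0.98 (SE 0.39, adjusted p = 0.370, edgeR). Ahcy, the hydrolase that frees homocysteine, was 546 and 649 against 443 and 406 CPM in TLH and 1045 and 855 against 572 and 398 CPM in nuclei. DA was above LEW without overlap in both, with a log2 difference of 0.94 in nuclei (SE 0.43, adjusted p = 0.479, edgeR). Bhmt was 2697 and 2510 against 1628 and 2452 CPM in TLH, and 3012 and 2175 against 1749 and 1924 CPM in nuclei (log2 0.50, SE 0.42). The strains did not overlap in either, but LEW 2 was close to the DA rats in TLH.

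The remaining sulfur enzymes fell into the same range or below it. Cbs, the entry to transsulfuration, was 226 and 194 CPM in DA against 161 and 147 CPM in LEW in TLH, and 374 and 410 against 204 and 344 CPM in nuclei (log2 0.52, SE 0.40). Cdo1, which oxidises cysteine, was 841 and 710 against 670 and 834 CPM in TLH and overlapped, and was 900 and 885 against 749 and 688 CPM in nuclei (log2 0.29, SE 0.40). The strain means of Cdo1 in TLH were within 1.03-fold. Csad, the step towards taurine, was 441 and 405 against 371 and 229 CPM in TLH, and 792 and 400 against 416 and 359 CPM in nuclei, where DA 2 lay below LEW 1 (log2 0.62, SE 0.46). Without DA 1 the difference of Csad in nuclei was -0.08 on the log2 scale.

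Counted over the 8 members, both DA rats were above both LEW rats for 6 in TLH, beside 29.1% of 9855 genes, a contrast that the choice of genes had used. In nuclei the count was 7 of 8 against 19% of 10591 genes, with a median log2 difference of mean CPM of 0.75 for the members and -0.01 over all genes tested. None of the 8 passed the edgeR threshold in nuclei, where 1.28% of genes were called in either direction. Cth and Gnmt were the 2 members with an unadjusted p under 0.05, and DESeq2 called 1, Cth. In the single immune-enriched libraries Cth was the 1 member past 2-fold, against 9.1% of 11007 genes past 2-fold towards DA. There Bhmt had a DA to LEW ratio of 1.43, Ahcy 1.37, Cbs 1.34, Mat1a 1.15 and Gnmt 1.05, with Csad at 0.975 and Cdo1 at 0.832. The counting intervals of Gnmt (0.981 to 1.12) and Csad (0.914 to 1.04) held 1. Cth had the largest strain ratio of the 8 members in nuclei, where it was not called by edgeR, and in the single immune-enriched libraries. It also ranked first in TLH, a value that the choice of genes had used.

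**Figure D2:**
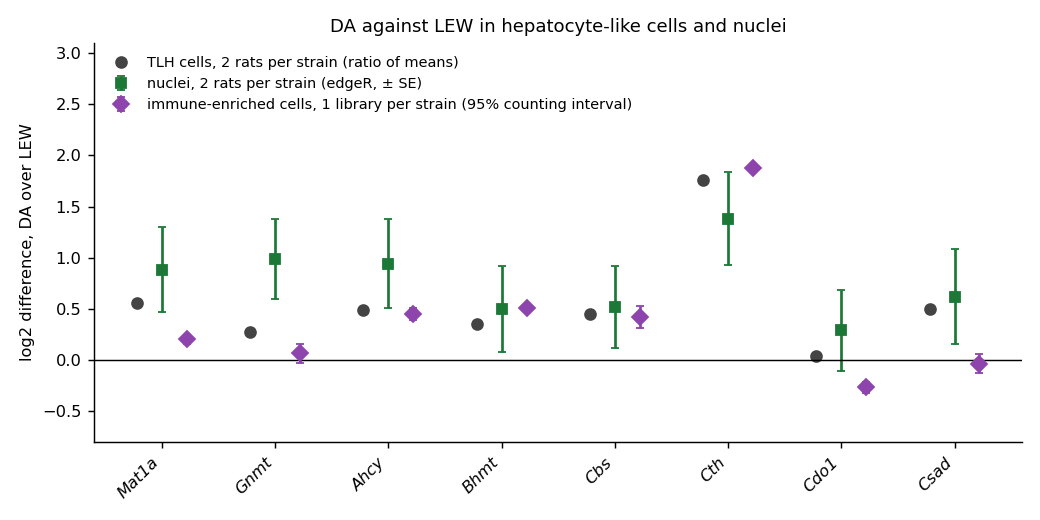
Log2 difference of DA over LEW for each member, with the ratio of strain means in TLH, the edgeR estimate ± SE in nuclei and the ratio with its 95% counting interval in immune-enriched cells. Cth lies highest in every preparation, at 1.75, 1.38 and 1.87, and Cdo1 lies at 0.04, 0.29 and -0.27.

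Other lists were read beside these counts. Of 35 rows of hepatocyte markers in nuclei, 7 had both DA rats above and 9 had both LEW rats above, with a median log2 difference of -0.14. Periportal zone genes had a median of 0.49 in nuclei and 0.23 in TLH, and pericentral zone genes -0.44 in both, as DA over LEW. Within zone terciles of nuclei, described further on, 6 pericentral, 6 middle and 7 periportal comparisons of the 8 members had DA above LEW without overlap, against 11.9%, 14.6% and 26.1% of 10591 genes, respectively. Macrophage markers in nuclei summed to 99.9 and 101 CPM in DA hepatocyte-like nuclei and to 157 and 151 CPM in LEW ones, with all 12 measured markers detected in each. In nuclei, endothelial markers summed to 137 to 152 CPM with 18 to 19 of 19 detected (Stab1 or Clec4g at 0), mesenchymal markers to 616 to 1018 CPM with 15 to 16 of 16 detected (Acta2 at 0 in LEW 2), and leukocyte markers to 38.3 to 56.6 CPM with 14 to 16 of 22 detected (Ms4a1 and Siglech at 0 in all 4). Cholangiocyte markers summed to 31.0 to 38.0 CPM in nuclei (5 to 8 of 9 detected) and erythroid markers to 5.50 to 84.0 CPM (3 to 4 of 5 detected). In TLH hepatocyte-like cells some sums split by strain. Endothelial markers summed to 252 and 254 CPM in DA and 142 and 210 CPM in LEW (17 to 19 of 19 detected), with both DA rats above for 7 and both LEW rats above for 0 of the 15 endothelial markers tested and a median log2 difference of 0.44, beside 0.47 for the members. Mesenchymal markers summed to 835 and 873 CPM in DA and 975 and 1164 CPM in LEW (16 of 16 detected), and cholangiocyte markers to 48.6 and 47.9 CPM against 37.2 and 32.9 CPM (4 to 8 of 9 detected). Macrophage markers (399 to 601 CPM, 12 of 12 detected), leukocyte markers (139 to 266 CPM, 17 to 21 of 22 detected, Ms4a1 at 0 in 3 of 4) and erythroid markers (87.0 to 668 CPM, 5 of 5 detected) overlapped between the strains. In the immune-enriched hepatocyte-like cells of DA and LEW, leukocyte markers summed to 445 and 67.5 CPM (13 and 18 of 22 detected, Ms4a1 at 0 in both), mesenchymal markers to 590 and 784 CPM (11 and 14 of 16, Acta2 and Dcn at 0 in both) and endothelial markers to 104 and 51.6 CPM (17 of 19 each, Clec4g at 0 in both). Macrophage markers there summed to 7.86 and 48.6 CPM (11 and 12 of 12, Clec4f at 0 in DA), cholangiocyte markers to 46.3 and 37.6 CPM (4 and 5 of 9) and erythroid markers to 21.8 and 99.4 CPM (4 and 5 of 5). The part of these other cells in the strain values was not tested. One immune-enriched hepatocyte-like cluster, led by genes of dividing cells such as Top2a, Mki67 and Stmn1, held 18 of the 176 DA and 25 of the 1240 LEW cells, and without it, an alternative added after the data were seen, the Cth ratio was 3.69, or 1.88 on the log2 scale (counting interval 1.84 to 1.93), and those of the other members were 0.845 to 1.45.

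The strain difference of Cth was also present outside hepatocyte-like clusters. In the other TLH classes Cth averaged 1656 CPM in DA and 419 CPM in LEW, a ratio of 3.95, and in TLH barcodes under the UMI limit the ratio was 3.46. In the other classes of nuclei it was 2.85. In the other classes of immune-enriched cells Cth was 44.5 CPM in DA and 51.2 CPM in LEW, or 3.04% and 12.8% of the hepatocyte-like level. In the unnamed immune-enriched clusters Cth was 477 CPM in DA and 405 CPM in LEW, but these were unlike mixtures in the 2 libraries. The largest, with 12 hepatocyte markers among its 100 leading genes over non-hepatocyte clusters, held 60 of the 219 DA and 331 of the 511 LEW cells. Another, led by S100a8 and Lyz2, held 69 and 59. The 2 Cth values therefore do not compare like cells. Counts of Cth in the other classes of TLH and of nuclei thus carried the strain ratio, and those in the other classes of the immune-enriched libraries did not. The study describes a background of RNA released by hepatocytes in its TLH and nuclei data. It says that the washes of the immune-enriched samples were meant to reduce this background. The part of such RNA in the levels given here, by class or by zone, was not tested. Over all kept immune-enriched cells, of which hepatocyte-like cells made up 176 of 1163 in DA and 1240 of 2677 in LEW, the Cth ratio was 2.36. The ratio was under 1 for the other 7 members there, at 0.688 to 0.909 for Mat1a, Gnmt, Ahcy, Bhmt and Cbs, 0.530 for Cdo1 and 0.641 for Csad.

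**Figure D3:**
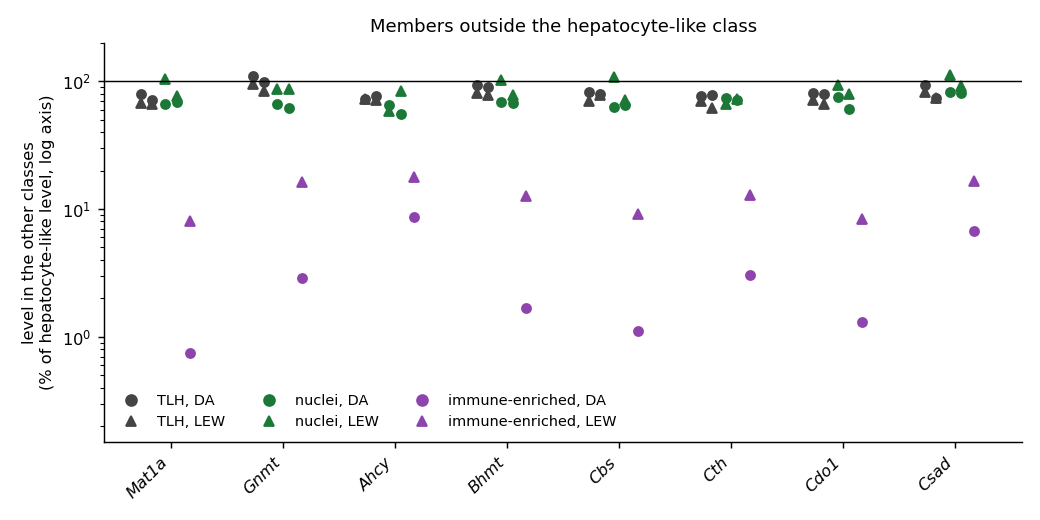
Level of each member in the endothelial-, mesenchymal-, macrophage- and leukocyte-like classes together, without erythroid-like and unnamed cells, as a percentage of its hepatocyte-like level in the same library, on a log axis, with circles for DA and triangles for LEW. TLH and nuclei values lie between 55.0% and 112%, and immune-enriched values between 0.745% and 17.7%.

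Levels per cell were read in deep hepatocyte-like cells. The depth limit was chosen after the data were seen. With at least 10000 UMIs a cell, 117 DA and 836 LEW immune-enriched hepatocyte-like cells were left, which held 4771935 of 4964950 and 31069582 of 32245192 UMIs of their hepatocyte-like sums, so that the ratios are not independent of those above. These cells had median depths of 40333 and 38186 UMIs. Cth had a median of 1428 CPM in DA cells (quartiles 1086 and 1893) and 372 CPM in LEW cells (quartiles 236 and 523). The lower DA quartile was above the upper LEW quartile, and the 10th percentile of DA cells, 765 CPM, was above the 90th percentile of LEW cells, 685 CPM. Summed over these cells the ratio was 3.72 (interval 3.61 to 3.83), with 1.45 for Bhmt, 1.38 for Ahcy, 1.31 for Cbs, 1.15 for Mat1a, 1.06 for Gnmt, 0.962 for Csad and 0.837 for Cdo1. The quartile ranges of the other 7 members overlapped between the libraries. Csad differed in its spread, with quartiles of 22.1 and 380 CPM in DA cells and 87.7 and 309 CPM in LEW cells, and a UMI in 76.9% and 92.8% of cells. Thinned to 1000 UMIs a cell, Cth had a UMI in 60.2% of DA and 33.5% of LEW hepatocyte-like cells, and in 9.09% and 7.64% of endothelial-like cells of the same libraries (unthinned 86.4%, 84.8%, 16.7% and 21.7%), whose median depths were 2771 and 3340 UMIs against 36656 and 26858 for hepatocyte-like cells. Mitochondrial genes took a median of 32.8% to 36.4% of UMIs over the zone terciles of deep DA cells and 29.7% to 30.8% in the LEW ones, and with these genes left out of the total the log2 difference of Cth over all hepatocyte-like cells went from 1.87 to 1.97.

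In TLH, 5000 UMIs were reached by 51 cells of DA 2, 13 of LEW 1 and 7 of LEW 2, and by none of DA 1. Cth was 2123 CPM in the DA cells and 521 and 495 CPM in the LEW cells, a ratio of 4.18. Cbs had a ratio of 1.95 there and Mat1a 1.45, while Cdo1 and Csad were at 0.962 and 0.968. These are 1 DA and 2 LEW rats, and the LEW values rest on 40 and 21 UMIs of Cth and on 6 UMIs of Cbs in each rat.

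**Figure D4:**
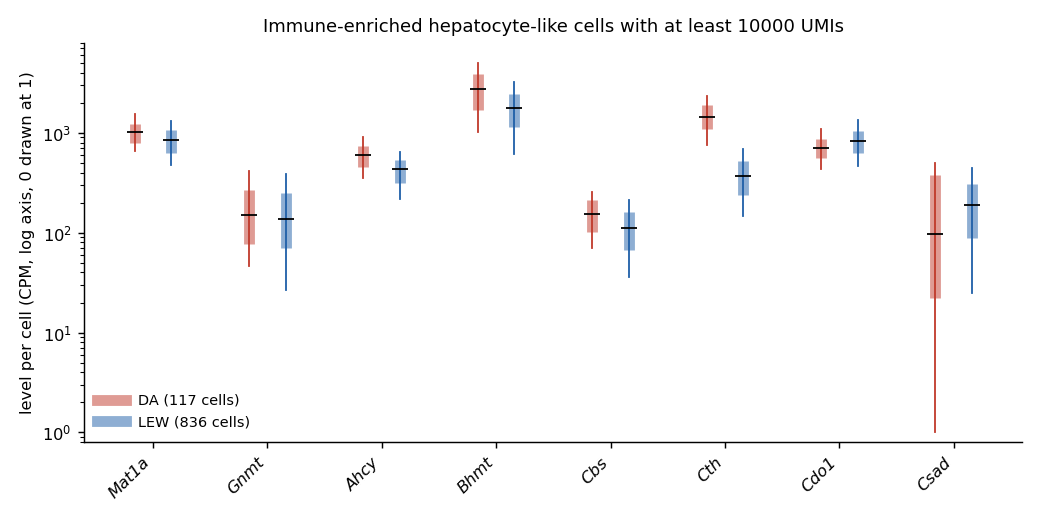
Level per cell in the deep immune-enriched hepatocyte-like cells, in CPM on a log axis with 0 drawn at 1, where the line spans the 10th to 90th percentile, the bar the quartiles and the dash the median. The Cth bars of DA (1086 to 1893 CPM) and LEW (236 to 523 CPM) do not overlap, and those of the other members do.

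Zone was read from a score of pericentral less periportal genes that left out the members, and each library was cut into equal terciles of that score. In nuclei Csad stood at 1100, 715, 582 and 581 CPM in the pericentral tercile of DA 1, DA 2, LEW 1 and LEW 2, and at 504, 184, 289 and 187 CPM in the periportal tercile. It was higher at the pericentral end in 4 of 4 rats, by 1.69 on the log2 scale (SE 0.21, adjusted p = 3.18e-05, edgeR with rat as a block). Bhmt went the other way, with 1587, 1444, 1264 and 1455 CPM pericentrally and 4330, 2731, 2317 and 2225 CPM periportally. It was lower at the pericentral end in 4 of 4 rats, by -0.70 on the log2 scale (SE 0.20, adjusted p = 0.0179, edgeR), and its adjusted p was 0.104 without DA 2 and 0.0511 without LEW 2. Without the rat as a replicate block neither was called (Csad 1.61, adjusted p = 0.0994; Bhmt -0.76, adjusted p = 0.229, edgeR). These 2 of 8 members compare with 23.1% of the 9367 genes tested. Median depth was 1332 to 1904 UMIs in the pericentral nuclei and 1848 to 2860 in the periportal ones, and with nuclei thinned to 1000 UMIs before scoring both genes stayed past the threshold (Csad 1.47, Bhmt -0.64).

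The scaling of the zone sums mattered for the other members. TMM scaling, which assumes that most genes do not change, put the median gene at -0.04, and library totals put it at -0.29 on the log2 scale. With totals 5 of 8 members were called, since Mat1a (-0.67), Gnmt (-0.61) and Cbs (-0.46) joined Bhmt on the periportal side, while under TMM these were -0.41, -0.35 and -0.20 with adjusted p of 0.154, 0.142 and 0.409 (edgeR). The CPM of Mat1a was lower at the pericentral end in 4 of 4 rats (2813, 3292, 1870 and 2127 against 6538, 4813, 2512 and 3022), as were those of Gnmt and Cbs. The CPM of Cth was lower there in 4 of 4 rats (981, 739, 449 and 225 against 1003, 1258, 526 and 313), with a fitted log2 difference of -0.12 (SE 0.19, adjusted p = 0.690, edgeR). By rat the log2 ratio ran from -0.77 to -0.03. Ahcy and Cdo1 had rats on both sides, and the sign of Cdo1 flipped between the scalings.

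In TLH cells the zone differences were smaller, and Csad and Bhmt were again the 2 members called. Csad was 446, 458, 408 and 249 CPM pericentrally and 416, 360, 331 and 206 CPM periportally, a fitted log2 difference of 0.27 (SE 0.05, adjusted p = 1.59e-05, edgeR). Bhmt was 2525, 2351, 1475 and 2279 against 2825, 2644, 1724 and 2551 CPM, or -0.17 on the log2 scale (SE 0.04, adjusted p = 0.00198, edgeR), and was lost without LEW 1 (adjusted p = 0.135) and with the study's own zone genes (-0.05, adjusted p = 0.739). Neither was called without the rat as a replicate block (adjusted p = 1.00 for both, edgeR). With the study's zone genes 2 members were called as well, 1 higher and 1 lower pericentrally, against 737 of 8478 genes, and the lower one was not Bhmt. In the main fit the 2 of 8 members compare with 2.59% of 8480 genes called. Cth was lower pericentrally in 4 of 4 rats by -0.13 (SE 0.04), with an adjusted p of 0.0679 under TMM and of 0.0473 with library totals (edgeR). Mat1a was also lower there in 4 of 4 rats, by -0.11 (SE 0.04, adjusted p = 0.160, edgeR under TMM). The fitted differences of Gnmt, Ahcy, Cbs and Cdo1 were -0.08, 0.01, 0.03 and -0.01, none past the threshold.

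Spots of the Wistar sections gave the zones in tissue, and a spot holds several cells, so that fewer hepatocytes and less RNA per hepatocyte cannot be told apart. Csad was 162 CPM in pericentral and 33.6 CPM in periportal spots of section A and 122 and 23.2 CPM in section B, ratios of 4.82 and 5.24. It was the 1 of 8 members past 2-fold towards the central vein in both sections, which 0.897% of 10700 genes were. Cth was 1280 and 1222 CPM pericentrally against 1637 and 1658 CPM periportally, and Bhmt 3297 and 3225 against 4331 and 4436 CPM. Both were higher in the periportal spots of each section, Cth by 1.28- and 1.36-fold and Bhmt by 1.31- and 1.38-fold, as were Gnmt (1.18 and 1.21) and Mat1a (1.13 and 1.14). Ahcy, Cbs and Cdo1 were 1.03- to 1.05-fold higher periportally in both sections. Over whole sections Cth stood at 1492 and 1470 CPM.

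In deep immune-enriched hepatocyte-like cells, cut into terciles of 39 DA and 279 LEW cells, Csad was 436 CPM pericentrally and 32.4 CPM periportally in DA, a ratio of 13.5, and 324 and 166 CPM in LEW, a ratio of 1.95. Bhmt was 1554 against 4151 CPM in DA and 1278 against 2385 CPM in LEW, or 2.67- and 1.87-fold higher periportally. Gnmt was 155 against 295 CPM and 123 against 263 CPM, or 1.90- and 2.13-fold higher periportally. The 3 genes kept 1 direction in both libraries. So did Mat1a (1.17-fold in DA and 1.27-fold in LEW, higher periportally), Ahcy (1.31- and 1.15-fold, higher periportally) and Cdo1 (1.14- and 1.07-fold, higher pericentrally). Cbs was 1.12-fold higher periportally in DA and 1.15-fold higher pericentrally in LEW. None of the 8 members was past 2-fold in both libraries, against 3.12% of 7446 genes. Cth was 1113 against 1690 CPM in DA, 1.52-fold higher periportally, and 365 against 371 CPM in LEW, so that its DA to LEW ratio was 3.05 in the pericentral and 4.56 in the periportal tercile.

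**Figure D5:**
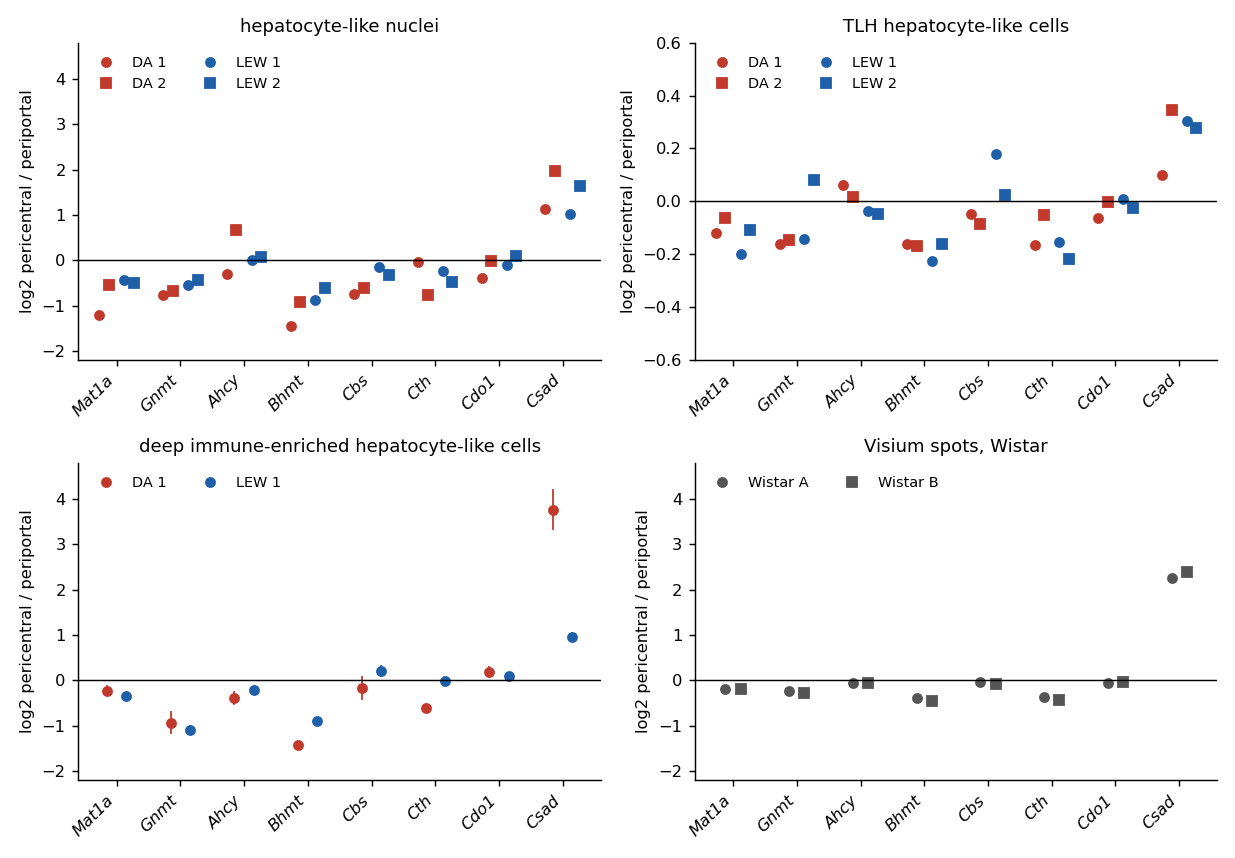
Log2 ratio of the pericentral over the periportal tercile for each member by library, from CPM, in nuclei, TLH cells (narrower axis), deep immune-enriched cells with 95% counting intervals, and Wistar spots. Csad is above 0 and Bhmt below 0 in every library shown, and the TLH values lie within 0.35 of 0.

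Whether zone differences differed between strains was tested in nuclei. None of 8 members passed (edgeR interaction, 2.9% of 9367 genes called), with 0 at an unadjusted p under 0.05 and 0 called with library totals. The interaction was 0.15 on the log2 scale for Cth (SE 0.28; -0.05 with library totals) and 0.42 for Csad (SE 0.29). The number of genes called over all genes fell from 272 to 4 without LEW 1, to 13 without LEW 2 and to 54 with library totals, and rose to 1430 without DA 2, and Ahcy (0.78) and Csad (0.79) were called without DA 1. By tercile, Cth averaged 860 against 337 CPM in the pericentral, 1174 against 424 CPM in the middle and 1131 against 420 CPM in the periportal tercile of DA and LEW nuclei, ratios of 2.56, 2.77 and 2.69. DA was above LEW without overlap in each.

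Cells and nuclei were compared over 4 libraries each with strain as a covariate. Chemistry, sequencing and preparation changed with the platform and cannot be told apart from it, and whether the rats changed too is not settled by the labels. The scaling decided most of these values, since the median gene was at -0.09 under TMM and at -0.95 with library totals. Cth was 595 to 2146 CPM in TLH and 278 to 1118 CPM in nuclei, higher in cells by 1.67 under TMM (SE 0.25, adjusted p = 4.63e-05, edgeR) and by 0.84 with totals (adjusted p = 0.00134, edgeR). Gnmt, at 387 to 620 against 234 to 527 CPM, was higher in cells by 1.43 (SE 0.23, adjusted p = 8.96e-05) and by 0.58 with totals (adjusted p = 0.0164, edgeR). Bhmt (0.92) and Cdo1 (0.78) were called under TMM and were at 0.08 and -0.07 with totals. In total 4 of 8 members were called under TMM, against 72.7% of 11039 genes. Mat1a was 1032 to 1700 CPM in cells and 2088 to 4789 CPM in nuclei, lower in cells by -1.28 with totals (adjusted p = 1.01e-05, edgeR) and by -0.42 under TMM (adjusted p = 0.0808). Ahcy, Cbs and Csad were below 0 with totals (-0.43, -0.87 and -0.43) and at 0.40, 0.00 and 0.40 under TMM, none past the threshold there. Set against the median gene, Cth and Gnmt were the members most weighted to cells and Mat1a and Cbs the least under both scalings.

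The genes whose nuclear level followed Cth most closely over 12 sums, the 3 terciles of 4 rats, were Stim1 (Pearson r 0.949), Cyp4a2 (0.942), St6galnac4 (0.937), Uox (0.932) and Scpep1 (0.932), among 5178 genes with a mean of at least 20 CPM. Stim1 is a calcium sensor of the endoplasmic reticulum, Cyp4a2 a fatty acid hydroxylase and Uox the urate oxidase of peroxisomes. Of the members, Ahcy was nearest at 0.869, followed by Gnmt (0.784), Cdo1 (0.776) and Mat1a (0.635), with Bhmt at 0.431, Cbs at 0.337 and Csad at 0.201. The sums share rats and libraries, and the values describe these nuclei.

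Of 61 tested genes of the wider pathway in 6 lists, edgeR called 1 between strains, against 1.28% of all genes. It was Chac1, a glutathione-degrading enzyme of the amino acid stress response, which was higher in DA by 1.68 on the log2 scale (SE 0.35, adjusted p = 0.0413). The medians were 0.16 for methionine salvage and remethylation, -0.11 for methyltransferases, 0.25 for folate, choline and glycine genes, -0.11 for cysteine, glutathione, taurine and sulfide genes, 0.17 for polyamine genes and 0.52 for serine supply and stress-response genes, beside -0.03 over all genes. With library totals edgeR called 6 of the 61 and 361 of all 10591 genes, and the 6 were named after their values were seen: the aminotransferase Got1 (2.31), the taurine transporter Slc6a6 (2.11), Amd1 of polyamine synthesis (1.42), Chac1 (1.69) and the stress-induced Sesn2 (1.48) were higher in DA, and Baat, which conjugates bile acids with taurine or glycine, was lower (-1.57).

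Across zones in nuclei 25 of 59 tested genes of these lists were called, 14 higher and 11 lower at the pericentral end, against 23.1% of all genes, and with library totals 24 were called, 7 higher and 17 lower, against 3136 of 9367 genes. In the cysteine list 6 of 13 were higher and 2 lower at the pericentral end. Fmo1, a monooxygenase, was higher by 2.73 and the sulfurtransferase Tst by 1.07, while Slc6a6 (-1.70) and Got1 (-1.31) were lower, all 4 past the threshold with library totals too. Among folate and glycine genes 4 of 15 were higher and 2 lower under TMM, led by Gldc of the glycine cleavage system (-1.50) and Ftcd of histidine breakdown (-0.84), with Gcsh at 0.74 and Aldh1l1 at 0.57, but 1 was higher and 5 lower with totals, where Aldh1l1 was lost. Methyltransferases had Inmt at 2.39, Nnmt at -1.04 and Pemt at 0.54, the last lost with totals. The methionine salvage list had Mtr (-0.74) and Mtap (-0.57) lower and Adi1 (0.57) higher, the polyamine list Azin1 (-0.64) lower and Sat1 (0.60) higher, and the stress-response list Chac1 (-1.30), Sesn2 (-0.81) and Trib3 (-0.50) lower, where Adi1 and Sat1 were lost with totals. In TLH cells 7 of 59 were called, against 2.59% of all genes, namely Slc6a6 (-1.13), Fmo1 (0.51), Got1 (-0.36), Gldc (-0.35), Ftcd (-0.29), Chac1 (-0.41) and Psph (0.59), the last lost with totals. Of 59 tested genes 1, Suox, sulfite oxidase, was called for a zone difference that differed between strains in nuclei (1.04, SE 0.28, adjusted p = 0.0243, edgeR), against 2.9% of all genes, and it was lost with totals (adjusted p = 0.114).

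Between cells and nuclei, 35 of 62 tested genes of these lists were higher in cells and 10 lower under TMM, and 18 and 27 with library totals. The 45 called under either scaling compare with 72.7% of all genes under TMM and 8572 of 11039 genes with library totals. Largest in their lists were Mri1 of methionine salvage (2.23), Inmt (2.39), Shmt1 of serine and glycine exchange (2.33), Tst (2.23) and Psph of serine synthesis (1.62) towards cells and Amd1 (-0.82) towards nuclei, each in the same direction and past the threshold with library totals.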

How the data were processed

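The authors aligned reads with Cell Ranger 3.1.0 (cells, nuclei) or Space Ranger 1.1.0 (Visium) against a custom Rattus_norvegicus reference, versions as in the submitters' processing notes, and deposited unnormalised UMI counts for each gene row and barcode. Row names of the TLH and immune-enriched matrices come from the nuclei feature list, in its order. Deposited totals were 61441846 to 92484173 UMIs for a TLH library, 48255870 and 60005133 for the immune-enriched ones, 8039397 to 15186970 for nuclei and 34449562 and 34827603 for Visium. Cells were kept by the authors' limits on UMIs and mitochondrial share, except that LEW TLH cells needed 2000 UMIs, which gives the study's cell numbers, and not the stated 1500. Doublets were left in, as the authors did.

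Kept cells were clustered with Seurat 5.3.0 and sctransform 0.4.2 in R 4.3.3, on 15 principal components. These were first corrected for library by code modelled on Harmony, the authors' integration method, and not by its package. A cluster was named from at least 3 markers among its leading genes. In a step chosen after the data were seen, a 1.5-fold excess of hepatocyte markers also named clusters. A cluster of low depth for its libraries, with no marker of its class among its very first genes, was left unnamed all the same. An immune-enriched cluster of 391 cells, with 12 hepatocyte markers among 100 leading genes, stayed unnamed in this way. UMIs were summed per library and class. Tests were edgeR 4.0.16 quasi-likelihood fits with TMM scaling, filterByExpr and Benjamini-Hochberg adjustment over all genes (threshold 0.05), of strain and of strain by zone in nuclei, of zone with rat as a block, and of platform with strain as a covariate. DESeq2 1.42.0 was an alternative. With 2 rats a strain, precision is limited by the number of rats. Zone terciles came from a score of zone genes without the members, and Visium spots needed 1000 UMIs. Python 3.11.15, numpy 2.4.6, scipy 1.17.1 and scanpy 1.11.5 were used for sums, exact Poisson intervals (95%) and Scrublet scores. The code of the strain fit in nuclei was run on simulated counts with 200 changed genes. Their spread between libraries was set and not taken from the rats, so that run does not speak to the precision of the values here.

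The members and lists were chosen with earlier results of these data known. All 8 members were read in every comparison, but some comparisons print values for only part of them. Of each pathway list, up to 4 genes past the threshold with the largest log2 difference are named. The deep limit of 10000 UMIs, zone in deep cells, strain within terciles, library totals in place of TMM, the left-out mitochondrial genes and the crossed pairing were also chosen after the data were seen. Within nuclei, the deviations of DA and LEW rats of the same number correlated at 0.0873 over 10591 genes, so the numbers were not taken to pair strains. Between TLH and nuclei the correlation was -0.288 for DA and 0.171 for LEW over 9177 genes.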

Additional observations from a re-analysis of the deposited data

Results flagged for a closer look

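Zone ratios of 2 members took opposite signs in the strains, and the differences were not tested. In TLH cells the log2 ratio of pericentral over periportal Ahcy was 0.06 and 0.02 in the DA rats and -0.04 and -0.05 in the LEW rats, a difference of 0.0826 between strain means. For Cbs in the same cells it was -0.05 and -0.09 in DA and 0.18 and 0.03 in LEW, a difference of -0.170. In deep immune-enriched hepatocyte-like cells Cbs was at -0.17 in the DA library and 0.21 in the LEW library, a difference of -0.374 between single libraries. As ratios, the 95% counting intervals in TLH held 1 for Ahcy in every rat and for Cbs in every rat but LEW 1 (1.01 to 1.27). In deep cells the Cbs interval held 1 in DA (0.747 to 1.06) and not in LEW (1.07 to 1.25). In nuclei, where the interaction was tested, neither gene passed the threshold with all 4 rats.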

How the results depend on the processing

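With 2 rats a strain, the strain and interaction tests in nuclei turn on single rats, and the cause of the changes given here was not tested. In nuclei, 1 member, Cth, passed between strains with library totals, in DESeq2 and with the replicate block (log2 1.48, adjusted p = 0.0319, edgeR), and leaving out 1 rat gave 0 to 1 members. Over all genes the strain calls went from 136 to 361 with library totals, 249 in DESeq2, 526 with no filter on low counts, 539 with the replicate block, 68 in nuclei over 1500 UMIs and under 5% mitochondrial share, 76 in nuclei with no UMI of other cell types' markers, and 104 to 276 with 1 rat left out. The replicate numbers were not shown to pair the rats. Zone calls among members in nuclei went from 2 to 5 with library totals, to 0 without the rat as a replicate block and to 1 to 2 with 1 rat left out, and over all genes from 2168 to 1431 (DESeq2), 94 (no replicate block), 342 (the study's zone genes) and 554 to 2272 (1 rat left out). With library totals the zone calls over all genes were 731 higher and 2405 lower, against 1323 and 845. In TLH the members called across zones went from 2 to 0 without the replicate block and to 1 to 2 with 1 rat left out, and the calls over all genes from 220 to 96 (DESeq2), 9 (no replicate block), 737 (the study's zone genes) and 119 to 209 (1 rat left out). For strain by zone, leaving out 1 rat gave 0 to 2 members and 4 to 1430 genes, against 54 with library totals (28 up and 26 down, against 240 and 32), 155 in DESeq2 and 112 with the study's zone genes. Platform calls kept 4 members with the replicate block (8341 genes against 8030) and with the DA numbers crossed (8564 genes), and with library totals they were 1858 up and 6714 down, against 3850 and 4180. The log2 difference of Cth was 1.67 to 1.84 in TLH with 1 rat left out, and in immune-enriched cells 1.24 over all kept cells and 1.97 without mitochondrial genes. The mean log2 zone ratio of Csad in Visium was 2.73 with the study's zone genes and 2.86 with outer quintiles, against 2.33. No deep TLH value could be had at 10000 UMIs, which no kept hepatocyte-like TLH cell reached.

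Signs changed for 37 values of single genes. Not counted among them are Gnmt at -0.54 over all kept immune-enriched cells and Csad at 0.0566 in hepatocyte-like cells without mitochondrial genes, whose intervals in hepatocyte-like cells held 0, and Cdo1 in TLH between strains at -0.0833 and -0.10 with 1 rat left out, which moved by less than the replicate spread. Between strains, Csad in nuclei ran from -0.0818 (without DA 1) to 1.07 with 1 rat left out, and over all kept immune-enriched cells Mat1a was at -0.46, Ahcy at -0.15, Bhmt at -0.14 and Cbs at -0.24. With the study's zone genes, the zone difference was -0.29 (Ahcy) and 0.0729 (Cbs) in nuclei and 0.13 (Gnmt), -0.12 (Ahcy), -0.0134 (Cbs) and 0.0131 (Cdo1) in TLH, and that of Cdo1 in nuclei was -0.11 with library totals. In TLH, Ahcy was at -0.0295 with outer quintiles, and with 1 rat left out Ahcy ran from -0.0113 to 0.0347, Cbs from -0.0347 to 0.0681 and Cdo1 from -0.0251 to 0.0016. For platform, library totals gave -0.43 (Ahcy), -0.87 (Cbs), -0.0708 (Cdo1) and -0.43 (Csad), and Cbs was at -0.0407 with RLE size factors, -0.0405 in DESeq2, -0.0669 over all kept cells and nuclei and -0.16 to 0.0609 with 1 library left out. For strain by zone with 1 rat left out, Mat1a ran from -0.51 to 0.0526, Gnmt from -0.0900 to 0.0484, Ahcy from -0.10 to 0.78, Cth from -0.29 to 0.55 and Cdo1 from -0.15 to 0.14. Its values were 0.35 (Gnmt) and 0.0888 (Bhmt) with the study's zone genes and -0.0520 (Cth) and -0.19 (Cdo1) with library totals. Of the other single-gene values, 522 kept their sign and side of the threshold or moved by less than the replicate spread, 28 moved further, 19 passed only in the alternative and 9 lost their call.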
